A study of Homo sapiens with 16 samples.

Results

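The outermost 3 Mb of the human autosomes were followed through a Hi-C digestion series. They comprised the start of chromosomes 1 to 12 and 16 to 20 (17 p ends) and the end of all 22 autosomes (22 q ends), 39 ends in total. A 20 kb bin was a member when it was listed in all 8 files of the deeper of 2 sequencing runs. This left 5061 of the 5850 bins at the ends, out of 137198 bins listed in all 8 files on chromosomes 1 to 22 and X. The 789 absent bins lay unevenly, with 76 bins present at 19p, 93 at 1p, 96 at 16p and 148 at 7q and at 18p, of 150 possible. The rule names no contact value, but the filter that decided which bins the files list is not given in the sources used here, and it may depend on contacts.

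Hi-C joins DNA ends that lie close together in fixed nuclei and counts the joined pairs, here called contacts. Cells of the established human leukaemia line K562 were fixed with 2% formaldehyde and cut with the restriction enzyme HindIII for 0.25, 1, 3 or 12 h, with 2 replicate libraries at each time. All 4 groups therefore share the line, the fixation and the enzyme, and the labels distinguish them by digestion time. The series states that the time was varied to reach the boundaries that are most accessible to the enzyme at the shortest times. The labels do not say whether the replicates were separate cultures, so the p-values describe these libraries only, and their differences may be technical. Tests of a level below pool the 4 times, and 8 libraries on the same side give their smallest p whatever the spread. K562 is aneuploid and carries rearranged chromosomes, so an end in the reference genome is not necessarily an end in these cells. Its known fusion of chromosomes 9 and 22 (BCR-ABL1) was visible. The highest of the chromosome 9 with 22 pairs of 3 Mb windows held 29.5 times its expected contacts and ranked 12 of 403241 trans pairs.

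The end of a human chromosome is capped by telomere repeats bound by the shelterin proteins. Just inside lie subtelomeres, mosaics of duplicated segments that several chromosomes share, followed by unique sequence that is rich in genes on many arms. The tip of 16p, for example, carries the alpha-globin genes, which red-cell precursors and K562 cells use, whereas the tip of 4q carries the D4Z4 repeat array. Such repeats hinder read mapping, and restriction sites are spaced unevenly along the genome.

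Depth rose with digestion time. The second-run libraries held 114338328 and 62777251 contacts at 0.25 h (replicates 1 and 2), 121117603 and 78895077 at 1 h, 145441737 and 108866651 at 3 h, then 176412222 and 153465906 at 12 h. The count of contacts between ends of different chromosomes followed, from 12188 in the shallowest library to 54150 in the deepest. All measures below are ratios or shares within a library, and boundaries were called after thinning to equal cis contacts within 2 Mb, self contacts included. Depth and time rose together on average but not in every library: replicate 1 of 0.25 h was deeper than replicate 2 of 1 h and of 3 h.

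Ends of different chromosomes met more often than their overall trans contacts predicted. The expected count for a pair of windows was the product of their total trans contacts (contacts with other chromosomes), scaled to the library, so a window that is rich in trans contacts as a whole does not score high for that reason. Summed over the 724 trans pairs of ends, observed over expected (O/E) contacts were 1.74 and 1.72 at 0.25 h, 1.73 and 1.72 at 1 h, 1.76 and 1.73 at 3 h, then 1.81 and 1.81 at 12 h. All 8 libraries lay above 1 (mean 1.75-fold, log2 0.81 ± 0.03 SD, n = 8, exact two-sided sign-flip test p = 0.00781, the smallest that 8 libraries allow, Benjamini-Hochberg value over 8 such levels 0.00893). Both 12 h libraries lay above the other 6, which overlapped each other. The rank trend with digestion time was not past 0.05 (Spearman's rho 0.683, exact permutation p = 0.0825, 0.106 after Benjamini-Hochberg adjustment over 9 trends, n = 8). Pearson's r with log2 hours was 0.813 (exact permutation p = 0.0190). Leaving out the 0.25 h libraries gave 0.948 and leaving out those of 12 h gave 0.352, so the relation rests on the 12 h libraries. With ends of 1 Mb the mean log2 O/E was 1.78. In the deposited balanced signal it was 1.90, but there the expectation was the mean trans signal per possible pair of bins. That expectation leaves out the trans totals, so windows rich in trans contacts can score high and 1.90 is a different measure. The trend passed 0.05 without replicate 1 of 0.25 h (rho 0.844, exact permutation p = 0.0222), in the first run (exact p = 0.0198), without the outermost 500 kb (exact p = 0.0103), as a median over pairs (exact p = 0.0103) and with q ends only (exact p = 0.00317), while with ends of 1 Mb its sign turned (rho -0.195, exact permutation p = 0.672).

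The excess was steepest next to the telomere. When both windows lay within 0.5 Mb of their ends, O/E was 5.67 ± 0.198 (SD, n = 8 libraries, range 5.41 to 5.98). It was 2.07 ± 0.0948 at 0.5 to 1 Mb, 1.65 ± 0.0751 at 1 to 1.5 Mb, 1.58 ± 0.0842 at 1.5 to 2 Mb, 1.39 ± 0.0658 at 2 to 2.5 Mb and 1.38 ± 0.0472 at 2.5 to 3 Mb. Farther in it was 1.2 ± 0.0118 at 3 to 6 Mb, 1.10 ± 0.0115 at 6 to 9 Mb and 0.981 ± 0.00832 at 18 to 21 Mb. The libraries of the outermost 0.5 Mb did not overlap those of the next 0.5 Mb, whereas from 1 to 3 Mb each class overlapped the next. Subtelomeric sequence shared by several chromosomes can make reads of one end map to another, and its part in this excess was not tested.

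**Figure D1:**
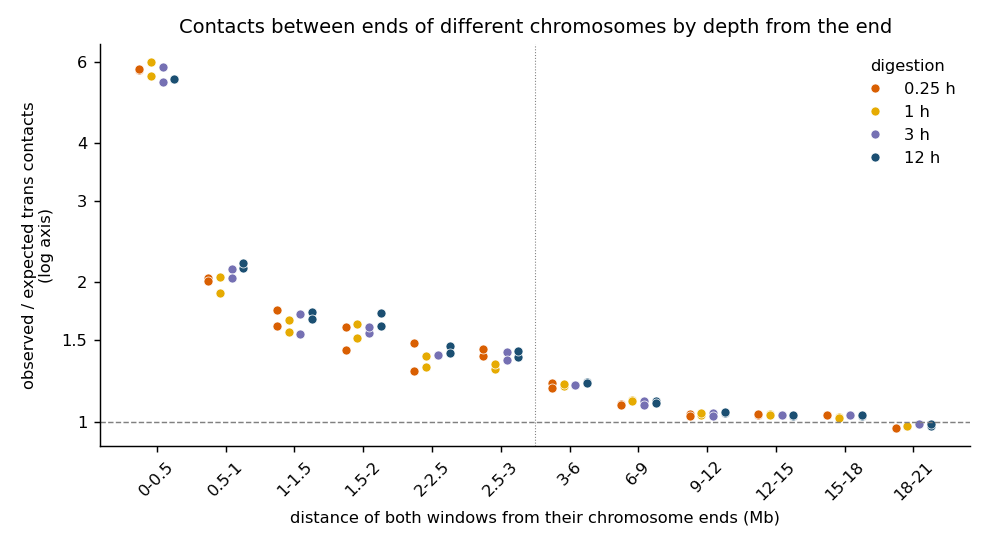
Observed over expected contacts between windows of different chromosomes (log axis) that lie equally far from their chromosome ends, by that distance in Mb; each point is a library, coloured by digestion time, and the dotted line marks 3 Mb. All libraries sit between 5.41 and 5.98 in the outermost 0.5 Mb and between 0.970 and 0.991 at 18 to 21 Mb.

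The whole 3 Mb ends exceeded the adjoining windows 3 to 6 Mb from the same ends in every library (1.46-fold, log2 0.54 ± 0.0236 SD, n = 8, exact sign-flip p = 0.00781, Benjamini-Hochberg value 0.00893). Without the outermost 500 kb this ratio was smaller but still positive, at a mean log2 of 0.33. It was larger in the balanced signal (1.07), where the expectation leaves out the trans totals. With ends of 1 Mb the reference windows lay 1 to 2 Mb from the end, here and in the trend below, and the ratio was 1.12. Its trend with time was not past 0.05 (rho 0.683, exact permutation p = 0.0825, 0.106 after adjustment). It passed with q ends only (rho 0.976, exact p = 0.000794) and without replicate 2 of 0.25 h (rho 0.844, exact p = 0.0222), and its sign turned with ends of 1 Mb (rho -0.634) and in the balanced signal (rho -0.390). The ends were also set against windows of other chromosomes at any depth. They had an O/E of 1.25 ± 0.0137 with windows 3 to 6 Mb from an end, of 1.03 ± 0.00476 with those at 6 to 9 Mb, and of 0.922 ± 0.00747 with everything beyond 30 Mb (n = 8 libraries).

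Only 730 of the 975 bins within 500 kb of an end were present, though each of the 39 ends had some. Their trans pairs held 22762 contacts in all libraries together, 9.58% of the 237651 contacts among the full ends. The 10 pairs of ends with most of these contacts supplied 18.6% of them, and without them O/E over the rest was 4.67. The excess was spread over most pairs, with 642 of 724 pairs above 1 and a median pair at 3.76.

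Between the 39 ends O/E with all other ends ranged from 0.873 to 3.54, with a median of 2.07. The mean over libraries was above 1 at 38 ends, and 37 were above 1 in every library. Highest was 1p at 3.54 ± 0.193 (SD, n = 8), followed by 19p at 3.01 ± 0.173, 9q at 2.97 ± 0.0861, 8q at 2.83 ± 0.117 and 20q at 2.76 ± 0.0635. Lowest were 9p at 0.873 ± 0.0324, 4q at 1.01 ± 0.0365, 18p at 1.05 ± 0.0416, 3p at 1.09 ± 0.0404 and 1q at 1.26 ± 0.0338. The 8 values of 9p ran from 0.828 to 0.935, below every library of any other named end.

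**Figure D2:**
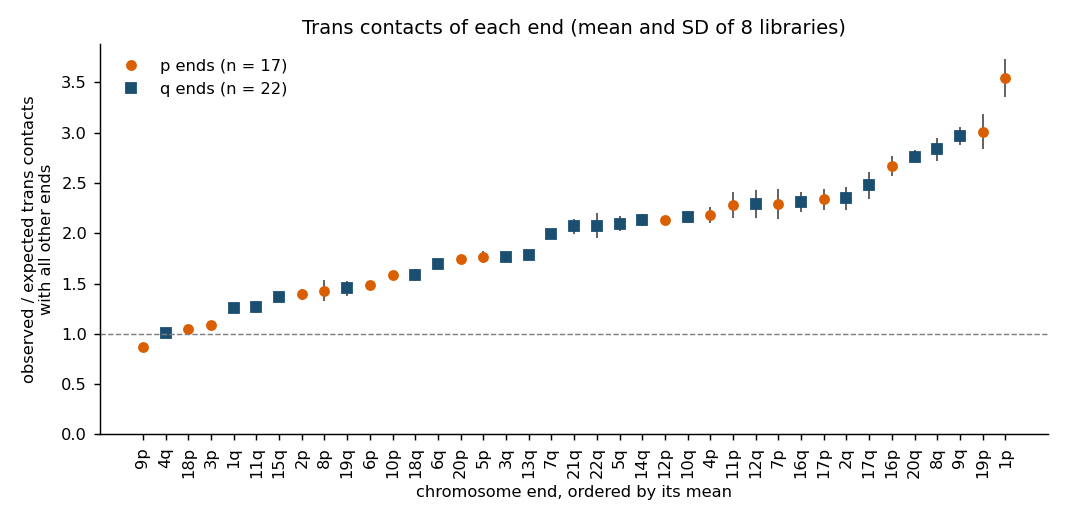
Observed over expected trans contacts of each chromosome end with all other ends, as the mean (symbol) and SD (bar) of 8 libraries, p ends as circles and q ends as squares, ordered by the mean; the dashed line marks 1. The order runs from 9p at 0.873 to 1p at 3.54.

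From 0.25 to 12 h the mean O/E was higher at 28 ends and lower at 11. End 1p was 3.55 and 3.97 at 0.25 h and 3.45 and 3.38 at 12 h, whereas 19p was 2.93 and 2.79 in the 0.25 h and 3.17 and 3.19 in the 12 h libraries. The libraries of these times did not overlap at either end. Over all 39 ends, 20 were higher and 5 lower at 12 h without overlap. The fall at 1p rested on its pair with 8p, described with the pairs. Without that pair, an alternative added after the values were seen, 1p was 3.08 and 3.09 in the 0.25 h and 3.38 and 3.28 in the 12 h libraries, so its direction turned.

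Across the ends, O/E was lower where bins held more contacts at 12 h (Spearman's rho -0.824, Pearson's r -0.725, n = 39 ends) and where more bins were present (rho -0.835, r -0.827). It was higher where a larger share of contacts was trans (rho 0.828, r 0.813). These are descriptions, since the ends share libraries and the trans totals enter both the expectation and the trans share. Base composition and restriction-site spacing were not analysed here.

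Pairs of q ends stood out. Summed by kind, O/E was 2.03 ± 0.0689 (SD, n = 8 libraries) for 231 pairs of q ends, 1.66 ± 0.0350 for 357 pairs of a p with a q end and 1.61 ± 0.0290 for 136 pairs of p ends. The q pairs exceeded the p pairs in 8 of 8 libraries by a mean log2 of 0.33 (exact sign-flip p = 0.00781). Mixed pairs exceeded p pairs in 7 of 8 by 0.05 (exact p = 0.0234). These 3 comparisons of kinds of pairs were added after the values were seen, and their p-values are unadjusted. Of all 724 pairs, 540 had a mean O/E above 1, 424 were above 1 in every library and 99 below 1 in every library.

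Pairs with at least 20 expected contacts over all libraries were ranked by the mean of log2 O/E, and the first 5 follow. By the plain mean of O/E, 1p with 8p, described further on, would stand ahead of the fifth. For 12p with 20q the libraries gave O/E 15.8 and 18.9 at 0.25 h, 15.9 and 18 at 1 h, 15.6 and 16.6 at 3 h, then 14 and 13.4 at 12 h. The 12 h libraries were the lowest of the 8. Next came 9q with 16p (12.1 to 17.9 over libraries), 16p with 19p (11.5 to 18.2), 9q with 19p (11.7 to 15.7) and 1p with 20p (10.1 to 14.6). Pairs among 9q, 16p and 19p thus filled 3 of the 5 places, and 9q and 19p were also among the 5 ends with the highest overall values.

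The leading pairs differed in where their contacts lay. Of the 1993 contacts between 12p and 20q, 63.2% joined the outermost 0.5 Mb of both, and a single pair of bins, chr12:160001-180000 with chr20:62960001-62980000 in hg19, held 337 of them (16.9%). For 1p with 20p, 51.0% of 1002 contacts joined the outermost 0.5 Mb, and the busiest pair of bins held 4.0%. Contacts of 16p with 19p were spread out instead, since 436 contacts fell on 414 pairs of bins, none with more than 3. Only 3.4% of them joined the outermost 0.5 Mb, against the 9.58% over all trans pairs of ends. Shared sequence, which can make reads of one end map to another, was not tested.

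A change with digestion time was called at 1 pair of ends. With limma on log2 O/E per pair of 3 Mb windows, 0.25 h against 12 h, 0.00174% of 403241 trans window pairs passed a Benjamini-Hochberg adjusted p of 0.05, and 575 of the 724 end pairs held enough expected contacts to be tested. The pair was 1p with 8p, whose O/E was 16.1 and 26.5 at 0.25 h, 12.4 and 14.4 at 1 h, 11.3 and 11.9 at 3 h, then 5.37 and 6.33 at 12 h. The times 0.25 and 12 h did not overlap (log2 difference 1.82 ± 0.175 SE, limma adjusted p = 0.0154, n = 2 libraries per time). The call was lost in the fit of 0.25 and 12 h alone and without any 1 of the 6 libraries from 1 to 12 h. Without replicate 1 of 0.25 h, 4 pairs of ends passed, beside 1185 of all window pairs (0.294%).

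Of the 1045 contacts between 1p and 8p, 44.7% fell on 1 pair of bins, chr1:780001-800000 with chr8:240001-260000. That pair held 85 and 92 contacts at 0.25 h, 67 and 48 at 1 h, 60 and 62 at 3 h, then 19 and 34 at 12 h. Both 12 h libraries held the fewest although they were the deepest. All other pairs of bins between these ends held 65 and 56 contacts at 0.25 h and 96 and 92 at 12 h. Sequence shared by 1p and 8p was not tested here either.

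Both ends of 1 chromosome met more often than ends of different chromosomes. Over the 17 chromosomes with 2 members, contacts exceeded the trans expectation 4.89-fold to 5.04-fold at 0.25 h, 4.70-fold to 5.06-fold at 1 h, 4.82-fold to 4.87-fold at 3 h and 5.17-fold to 5.27-fold at 12 h. This was 2.84 times the value among ends of different chromosomes (log2 1.5 ± 0.0359 SD, n = 8, exact sign-flip p = 0.00781, Benjamini-Hochberg value 0.00893). Windows as far apart on other autosomes exceeded the trans expectation too, 3.07-fold (reference for chromosome 9) to 7.23-fold (reference for chromosome 19). The test therefore does not set ends apart from other windows of 1 chromosome. The trend of the contacts between both ends with digestion time did not pass 0.05 (rho 0.390, exact permutation p = 0.361), and in the first run its sign turned (rho -0.634, exact permutation p = 0.110).

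The chromosomes differed widely. Chromosome 16 led with 26.6 ± 2.51 times the trans expectation (SD, n = 8), ahead of chromosome 20 with 9.31 ± 1.13 and chromosome 17 with 7.86 ± 0.305. At the other end stood chromosome 11 with 2.16 ± 0.380, chromosome 3 with 1.10 ± 0.144 and chromosome 9 with 0.421 ± 0.258. The value for chromosome 9 rested on 3 to 7 contacts per library. The median of the 17 was 4.54, and 16 lay above 1.

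Contact within a chromosome falls with distance, so each pair of ends was set against windows as far apart (within 1.5 Mb) on other autosomes. Of the 15 chromosomes with at least 20 such reference pairs, 9 lay above the reference on average, 7 in every library and 4 below it in every library, with a median ratio of 1.08. The ends of chromosome 16 exceeded it 7.06-fold ± 0.602, against a reference of 3.76. Those of chromosomes 7 (2.05-fold ± 0.291), 10 (1.99-fold ± 0.192) and 6 (1.92-fold ± 0.131) also lay above it in every library. Those of chromosomes 18, 11, 3 and 9 lay below it in every library. The ends thus lay above the distance reference on some chromosomes and below it on others. These distances are those of the reference genome, and the chromosomes of these cells are rearranged. Chromosome 9, with the lowest value, is part of the fusion described above. On chromosome 16, with the highest, a window of 16q had a mean log2 O/E of 6.00 with a window of 1q. The part of rearrangements in the values of chromosomes 9 and 16 was not tested.

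**Figure D3:**
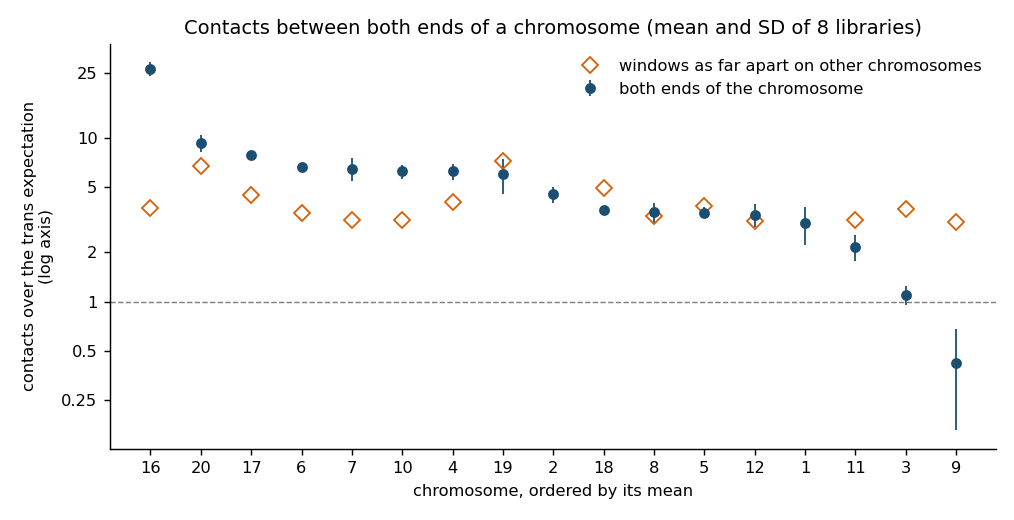
Contacts between both ends of a chromosome over the trans expectation (log axis), as the mean and SD of 8 libraries (filled circles), with the mean for windows as far apart on other chromosomes (open diamonds; none for chromosomes 1 and 2). Chromosome 16 sits highest at 26.6 against a reference of 3.76, and chromosome 9 lowest at 0.421. Distances are those of the reference genome, and rearrangements in these cells were not taken into account.

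With their own neighbourhood the ends had fewer contacts than inner windows had. At a separation of 3 Mb, contacts of an end window over the trans expectation were 0.689 times those of inner windows (SD 0.0201, range 0.656 to 0.709, n = 8, exact sign-flip p = 0.00781, unadjusted, added after the values were seen). The ratio was 0.686 at 6 Mb, 0.716 at 12 Mb and 0.744 at 30 Mb. It was lower at 12 h than at 0.25 h at each of the 7 separations examined, for example 0.658 against 0.708 at 3 Mb. This ratio uses trans totals in its base. Contacts per possible pair of bins inside 3 Mb windows, without that base, went the other way with time. At 40 kb their log2 ratio, ends over inner, was -0.619 and -0.652 at 0.25 h and -0.426 and -0.420 at 12 h. The trans share of the ends was high, as follows.

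Trans contacts made up 17% ± 0.40 of the contacts of end bins in the 0.25 h libraries, 17.7% ± 0.337 after 1 h, 17.9% ± 0.515 after 3 h and 19.5% ± 0.329 after 12 h (SD, n = 2 each). In all other bins the share was, in the same order of times, 10.8% ± 0.292, 11.2% ± 0.183, 11.3% ± 0.309 and 12.4% ± 0.141. The ends were higher in 8 of 8 libraries, by 1.57-fold (log2 0.65 ± 0.00607 SD, exact sign-flip p = 0.00781). The share rose in both, and their ratio had no trend past 0.05 (rho -0.146, exact permutation p = 0.761). At 12 h it was 24.4% within 0.5 Mb of the end and 17.5% at 2.5 to 3 Mb. It was nearly as high in the adjoining bins, 16.6% at 3 to 6 Mb and 16.4% at 6 to 9 Mb, and 14.4% at 12 to 15 Mb.

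End bins held fewer contacts than other bins, and the gap narrowed with digestion. Counting contacts with other bins only, the mean per end bin was 0.582 and 0.577 of the mean per other bin at 0.25 h, 0.591 and 0.592 at 1 h, 0.597 and 0.604 at 3 h, then 0.659 and 0.665 at 12 h. No library of a longer time overlapped one of a shorter time. The ratio was below 1 in all libraries (log2 -0.72 ± 0.0791 SD, n = 8, exact sign-flip p = 0.00781) and rose with time (rho 0.976, exact permutation p = 0.000794, the smallest that this design allows, and 0.00179 after adjustment). Pearson's r was 0.912, also with an exact permutation p of 0.000794. It was 0.940 if the 0.25 h libraries were left out and 0.961 if those of 12 h were. The rise did not stop at 3 Mb. From 0.25 to 12 h the ratio rose from 0.551 to 0.636 in the outermost 0.5 Mb, from 0.714 to 0.799 at 3 to 6 Mb and from 0.889 to 0.927 at 12 to 15 Mb.

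**Figure D4:**
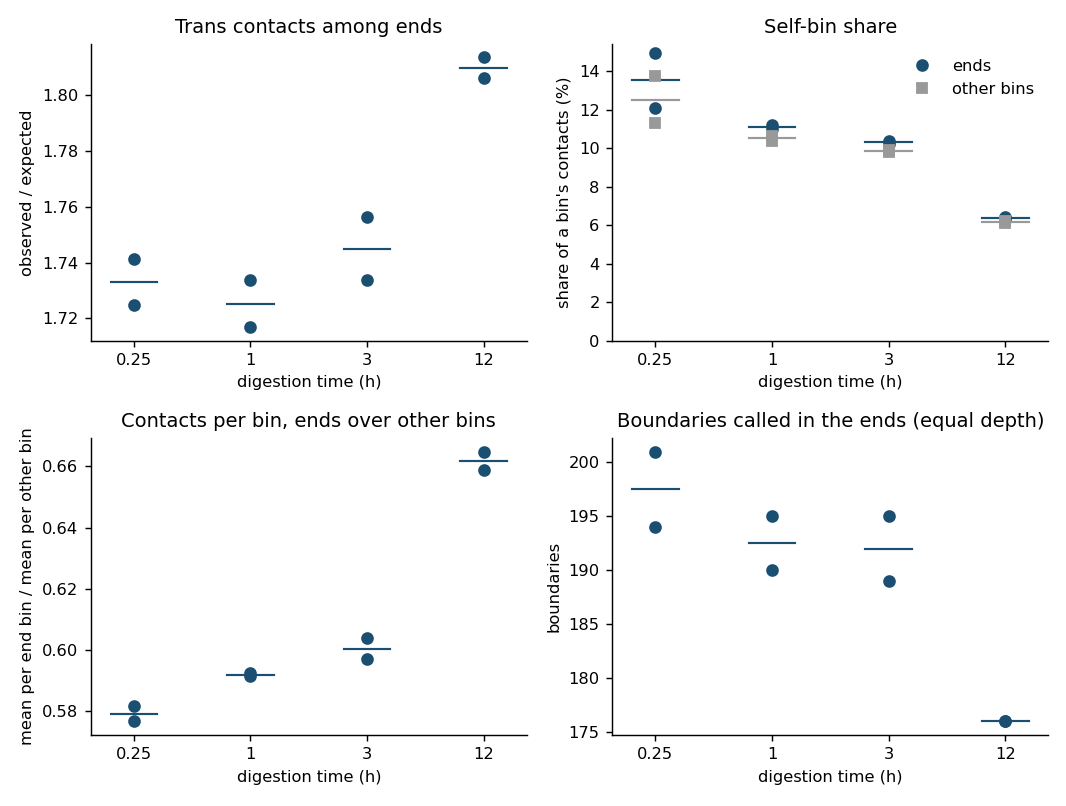
Per-library values (symbols) and means of the 2 replicates (bars) at each digestion time in h: O/E of trans contacts among ends, self-bin share in percent of a bin's contacts for ends (circles) and other bins (squares), mean contacts per end bin over mean per other bin, and boundaries called in the ends after thinning to equal cis contacts within 2 Mb, self contacts included. The 12 h libraries sit apart in each panel; axes other than that of the self-bin share do not start at 0.

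Ends that held few contacts gained most. Relative to the genome mean per bin, 19p held 0.147 and 0.136 at 0.25 h and 0.225 and 0.226 at 12 h, a log2 change of 0.67. Next were 1p (log2 change 0.59), 20q (0.57), 16p (0.56) and 16q (0.52). The smallest changes were at 18p (-0.03), 4q (0.01), 1q (0.02), 3p (0.03) and 9p (0.04). End 18p, with 1.58 times the genome mean at 0.25 h and 1.55 at 12 h, was the only one of the 39 to go down. Level at 0.25 h and change were inversely ordered (Spearman's rho -0.925, Pearson's r -0.864, n = 39 ends, a description in which the level at 0.25 h enters both values). The change also ordered like O/E with other ends (rho 0.887, r 0.874).

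**Figure D5:**
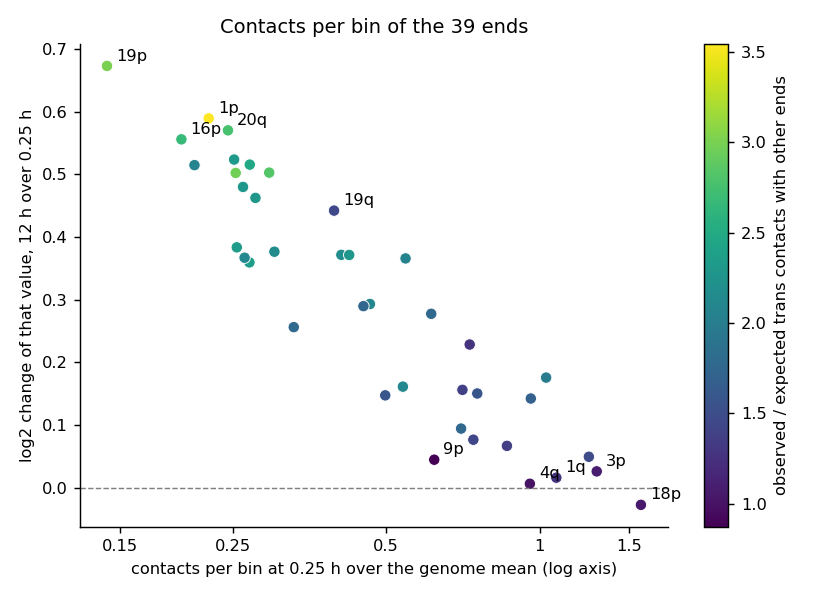
Contacts per bin of each chromosome end at 0.25 h relative to the genome mean (log axis) against the log2 change of that value from 0.25 to 12 h, coloured by O/E of trans contacts with the other ends. End 19p sits at the upper left with a change of 0.67 and 18p at the lower right with -0.03.

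Bin by bin, limma on log2 contacts scaled to library totals compared 0.25 h with 12 h, and 55.7% of all 137198 bins passed an adjusted p of 0.05, 35.0% of all bins as lower at 0.25 h. Of the 5061 end bins, 3903 passed (77.1%), with 3684 lower and 219 higher at 0.25 h. The median log2 difference (0.25 h minus 12 h) was -0.31 in the ends and -0.05 over all bins. With median-of-ratios size factors the split over all bins was 37893 lower and 38533 higher, against 47966 and 28518 with totals, while 3326 end bins were lower and 330 higher. With trans contacts alone 884 end bins passed, 855 of them lower at 0.25 h, beside 6.26% of all bins. Between 3 and 12 h, 38.5% of all bins passed, 24.2% as lower at 3 h, and 3194 end bins passed, 3047 of them lower at 3 h. From 0.25 to 1 h and from 1 to 3 h limma called 0 bins, though 713 and 341 end bins, and 13638 and 8004 of all bins, had an unadjusted p under 0.05.

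By end, the share of bins that passed ran from 35.6% at 9p (11 higher and 41 lower at 0.25 h) to 97.2% at 19q (137 of 141, all lower). End 18p was alone in having more bins higher than lower at 0.25 h, 40 against 37.

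The bins with the largest gains lay on 19p, 1p, 7p and 17q. At chr19:1940001-1960000 (19p) the bin held 101 and 46 contacts at 0.25 h and 434 and 386 at 12 h, a log2 difference after scaling of -1.43 ± 0.125 SE (limma adjusted p = 1.45e-08). The other 4 were chr1:2700001-2720000 (-1.36), chr7:2120001-2140000 (-1.29), chr17:79120001-79140000 (-1.19) and chr19:2560001-2580000 (-1.18). Bins that went the other way changed less. The largest was chr18:800001-820000, 0.66 ± 0.0499 SE higher after scaling at 0.25 h (limma adjusted p = 3.19e-09), followed by chr8:2740001-2760000 (0.61), chr15:99820001-99840000 (0.52), chr4:190880001-190900000 (0.47) and chr1:246320001-246340000 (0.46). In all 10 the libraries of 0.25 and 12 h did not overlap, as the rule for naming them required.

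Joined fragments from the same 20 kb bin, called self contacts, became rarer with digestion at the ends as elsewhere. As a share of the contacts of end bins they were 12.1% and 15% in the 0.25 h libraries, 11% and 11.2% after 1 h, 10.4% and 10.2% after 3 h, then 6.43% and 6.27% after 12 h. The rank trend was strong (rho -0.976, n = 8 libraries, exact permutation p = 0.000794 and 0.00179 after adjustment). Pearson's r was -0.939, with the same exact permutation p of 0.000794. The share was 13.5% ± 2.04 at 0.25 h, and the 2 libraries of that time differed more than those of any other. All 39 ends fell between 0.25 and 12 h without overlap, by 1.92-fold to 2.73-fold, as did 100% of 933 windows of 3 Mb over all chromosomes.

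Whether ends or other bins had the higher share depended on how bins were summed. The summed share of other bins was 12.5% ± 1.72 at 0.25 h and 6.15% ± 0.0727 at 12 h (SD, n = 2), and the ratio of ends to others was 1.08 ± 0.0151 at 0.25 h and 1.03 ± 0.00700 at 12 h. It was above 1 in 8 of 8 libraries (log2 0.07 ± 0.0261 SD, exact sign-flip p = 0.00781) and fell with time (rho -0.976, exact permutation p = 0.000794). In the first run this trend was not past 0.05 (rho -0.732, exact permutation p = 0.0548). With the median over bins the level and the trend reversed. The mean log2 ratio was -0.21 (exact sign-flip p = 0.00781) and it rose with time (rho 0.927, exact permutation p = 0.00317).

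The spread among bins was wider in the ends. At 0.25 h the median end bin had a self share of 6.28% and the median other bin 7.67%, but the 90th percentile was 22.7% in ends and 19.6% elsewhere. At the low side, 23.6% of end bins and 16.1% of other bins had under 2%. No self contact at all was recovered in both 0.25 h libraries in 353 end bins (6.97%) and 3.20% of the others.

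Among the ends the self share over the 8 libraries was highest at 16p with 13.7% (16.1% and 21.2% at 0.25 h, 8.54% and 8.30% at 12 h), then 17q with 12.8%, 16q with 12.6%, 11p with 12.4% and 17p with 12.3%. It was lowest at 3p with 8.50% (9.85% and 12.0% at 0.25 h, 5.47% and 5.42% at 12 h), then 10q with 8.55%, 4q with 8.74%, 5p with 8.94% and 11q with 9.18%.

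In limma on log2 odds of self over other contacts, 0.25 h against 12 h, 64.9% of all bins passed, and 2878 of 5061 end bins (56.9%) did, 2860 of them higher at 0.25 h. The median log2 difference was 0.80 in ends and 0.82 over all bins. Between 3 and 12 h, 56.9% of all bins and 2329 end bins passed. From 0.25 to 1 h limma called 0, with 1123 end bins and 27149 of all bins at an unadjusted p under 0.05, and from 1 to 3 h 0, with 295 and 4660. The fewest calls per end were 40.2% of bins at 7p and the most 73.5% at 3p. These ends also differed in contacts per bin, with 0.262 of the genome mean at 7p and 1.29 at 3p at 0.25 h. The share called did not simply follow the size of the change. End 13q had a median log2 difference of 1.00 with 55.0% of bins called, against 0.949 at 3p. The part of contacts per bin in these shares was not tested.

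The bin with the largest change was chr4:1500001-1520000 at 4p. It held 110 and 90 self contacts at 0.25 h, 80 and 52 at 1 h, 55 and 56 at 3 h, then 13 and 9 at 12 h, while total depth rose (log2 odds difference 4.94 ± 0.229 SE, limma adjusted p = 3.21e-05). Also named by the rule were chr7:1640001-1660000 (4.41), chr8:145200001-145220000 (4.40) and chr20:61740001-61760000 (4.36). The bin chr7:740001-760000, named by the same rule, held 14 and 18 self contacts at 0.25 h and 6 and 0 at 12 h. The 5 that went the other way rested on few contacts at 0.25 h, such as 4 and 0 against 29 and 34 at 12 h at chr19:1520001-1540000. The others were chr2:241960001-241980000, chr17:78920001-78940000, chr2:240900001-240920000 and chr16:2020001-2040000, each with 0 or 1 self contact in each 0.25 h library.

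Contact frequency fell with distance almost alike in ends and inner windows. The slope of log10 frequency on log10 distance was taken from 40 kb to 2 Mb. It was -0.934 ± 0.00779 in ends and -0.945 ± 0.00610 in inner windows at 0.25 h, and -0.954 ± 0.00864 and -0.946 ± 0.00684 at 12 h (SD, n = 2). The difference, ends minus inner, was 0.0109 in the 0.25 h libraries, 0.00643 after 1 h, 0.00308 after 3 h and -0.00836 after 12 h. This fall was ordered by time (rho -0.976, n = 8 libraries, exact permutation p = 0.000794 and 0.00179 after adjustment). Over all times the difference was not past 0.05 (mean 0.00300, exact sign-flip p = 0.305). It was past 0.05 without bins within 500 kb of the end (0.0125, exact sign-flip p = 0.00781). With ends of 1 Mb it was too (0.00406, exact sign-flip p = 0.0156), while the trend was not (rho -0.586, exact permutation p = 0.153). The setting of 1 Mb also used inner windows of 1 Mb and a shorter range of distances.

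Domain boundaries, stretches that few contacts cross, were somewhat denser in the ends. They were called as minima of the insulation score, the log2 of mean contact across a bin in a square of 300 kb over the chromosome mean, with a prominence of 0.2. Libraries were thinned at random to an equal 45530315 cis contacts within 2 Mb, and the outermost 300 kb of each end cannot be scored. The ends held 201 and 194 boundaries at 0.25 h, 195 and 190 at 1 h, 195 and 189 at 3 h, and 176 in both libraries at 12 h. Per Mb scored this was 2.10 to 2.40, against 1.82 to 1.99 elsewhere (1.18-fold, log2 0.24 ± 0.0330 SD, higher in 8 of 8, exact sign-flip p = 0.00781, Benjamini-Hochberg value 0.00893). The log2 ratio was smaller with the same number of contacts per bin in ends and elsewhere (0.14, exact p = 0.00781), an alternative added after the values were seen. Domains had a median length of 380 to 440 kb in ends and 460 to 500 kb elsewhere.

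The number of boundaries fell with time (rho -0.765, exact permutation p = 0.0373), a trend that did not stay past 0.05 over the 9 trends (Benjamini-Hochberg value 0.0671, n = 8). Elsewhere the number was also lower at 12 h, 4783 and 4726 against 5116 and 5163 at 0.25 h. With times permuted within replicate numbers, a replicate block, rho was -0.974 (exact permutation p = 0.00694). Thinning to the same number of contacts off the diagonal, added after the values were seen, gave rho -0.270 (exact permutation p = 0.526). No trend passed 0.05 with those contacts made equal, but both 12 h libraries still held the fewest boundaries. They held 186 and 177 in the ends, against 194 to 202 at shorter times, and 4867 and 4803 elsewhere, against 5055 to 5163. Nor did the unadjusted p pass 0.05 with ends of 1 Mb, squares of 500 kb or equal contacts per bin. The unadjusted p was also above 0.05 without replicate 1 of 0.25 h, without replicate 2 of 3 h and without either 12 h library.

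Boundaries of the ends had higher scores, and those of 12 h were found less often at 0.25 h. In the sum of the thinned libraries 167 of 4740 boundaries lay in ends, with a median score of -0.20 against -0.46 elsewhere. The score is relative to the chromosome mean, and its SD over all scored bins was 0.345 in ends and 0.344 elsewhere. How far boundaries lie below their surroundings was not compared. Of the 124 boundaries in ends found in both 12 h libraries, 59.7% were found within 20 kb in both 0.25 h libraries (Wilson 95% interval 50.9% to 67.9%), 70.2% in both of 1 h and 74.2% in both of 3 h. Elsewhere these shares were 75.9% (74.5% to 77.3%) of 3611, 77.5% and 78.6%. The intervals for 0.25 h do not overlap, whereas those for 1 h (61.6% to 77.5% in ends, 76.1% to 78.8% elsewhere) and 3 h (65.8% to 81.1% and 77.3% to 79.9%) do. They cover counting error only, and end bins held fewer contacts within 2 Mb at 0.25 h, 246 and 124 per bin against 439 and 225 elsewhere, whose part in this was not tested.

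The boundary with the lowest score was at chr19:56140001-56160000 (19q, score -1.55, from -1.70 to -1.27 over libraries). Next were chr18:2560001-2580000 (18p, -1.43), chr18:840001-860000 (18p, -1.14), chr6:2720001-2740000 (6p, -1.03) and chr9:2840001-2860000 (9p, -0.99). Insulation at single boundaries did not change past the threshold. With limma, 0% of the 4740 boundaries passed for 0.25 h against 12 h, while 15 of 167 in ends and 331 of all had an unadjusted p under 0.05. No boundary of the ends was thus called as changed in score between the shortest and the longest digestion.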

How the data were processed

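Each deposited file lists pairs of bins with a signal, balanced by the authors so that every bin has the same total. Per the submitters' processing notes, HiC-Pro 2.11.1, Bowtie2 2.3.4.1 and build hg19 were used. Bins of 20 kb (second run) and 50 kb (first run, an alternative) were numbered from 1 along hg19, and 22 chromosome borders were checked. The deposited signal is whole contacts times a factor per bin. These contacts were recovered, with 100% of values within 0.01 of a whole number. Pairs of bins held 1 contact in 77.2% to 78.3% of cases. PCR duplicates have no molecular identifiers.

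Single values were tested over libraries with exact two-sided permutation tests, and bins, window pairs and boundaries with limma 3.58.1 (log2 scale, pseudocount 0.5, bins of at least 20 contacts, window pairs of at least 10 expected) over all features, with Benjamini-Hochberg adjustment. The rule named the 5 highest and lowest ends or bins and the 5 leading pairs and boundaries. Members and lists were chosen with earlier results of these data known. Replicate numbers paired the libraries for contacts per bin (lowest correlation of deviations 0.113) but did not reach 0.1 in every pair for self odds, window pairs or insulation. Values per library were not checked in this way. Scripts were tested on simulated data. No hg19 sequence or gene annotation was used here.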

Additional observations from a re-analysis of the deposited data

How the results depend on the processing

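Of 284 recomputed values, 248 kept their direction and side of 0.05 or, for counts of calls, stayed within 1.5 times the reported count. Leaving out 1 library made up 168 of them, of which 154 were kept, and other alternatives 116, of which 94 were kept. Where all 8 libraries of a level had the same sign, leaving out 1 could not change the outcome. The fits of bins without a filter held the same bins as the main ones. The trend of trans O/E among ends had a rho of 0.830 in the first run, 0.878 without bins within 500 kb of the end, 0.878 as a median over pairs, 0.927 with q ends only, and -0.195 with the first and last 1 Mb. Leaving out 1 library gave 0.532 to 0.844. The trend of ends over inner windows had a rho of -0.634 with 1 Mb, set against windows at 1 to 2 Mb. It was -0.390 in the deposited balanced signal, and both were of opposite sign to the reported 0.683. With q ends only it was 0.976 (exact permutation p = 0.000794), and without 1 library it was 0.532 to 0.844. Both ends of a chromosome gave -0.634 in the first run. The self-share ratio trend gave -0.732 in the first run and 0.927 as a median over bins, whose level was -0.21. The trans share ratio trend ran from -0.422 to 0.239 without 1 library. The decay slope trend was -0.586 with 1 Mb, and its level was 0.00406 with 1 Mb and 0.0125 without 500 kb. The boundary trend was -0.691 with 1 Mb, -0.614 with squares of 500 kb, and, with alternatives chosen after seeing the data, -0.270 at equal contacts off the diagonal and -0.732 at equal contacts per bin; without 1 library it ran from -0.908 to -0.648. In limma, 884 end bins passed with trans contacts only, and end pairs passed 0 times with 2 times in the fit, 0 with 30 expected contacts and 0 to 4 times without 1 library. The causes were not tested.

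By unadjusted p the replicate block took no trend across 0.05, and its p-values were not adjusted over the trends. It gave the trans O/E trend a rho of 0.8 (exact permutation p = 0.0625). In limma 4033 end bins passed (beside 60.4% of all bins) for contacts per bin and 3002 (beside 65.9%) for self contacts. For pairs it called 1 pair of ends as before, and 13 instead of 7 of all window pairs.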
